A study of Mus musculus with 16 samples.

Results

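The genes of the apolipoproteins, and of the protein that loads them with lipid, were followed in liver and kidney of mice kept under a fixed or a repeatedly advanced light cycle. The set held 10 genes, namely Apoa1, Apoa2, Apoa4, Apoa5, Apob, Apoc1, Apoc2, Apoc3, Apoe and Mttp. They were taken by symbol, as a list drawn up with earlier results of these data known, and each of them was 1 of the 32989 rows of the liver table and of the kidney table. None of the symbols was repeated.

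Both organs came from 8 male C57BL/6J mice, of which 4 were LD-conditioned (a light-dark cycle that did not move) and 4 were ADV-conditioned (the cycle was advanced by 8 h every 4 days). Each condition lasted 85 weeks, up to an age of 97 weeks, and the organs were taken after the light period of the last day had ended. Mice L63, L65, L86 and L104 were LD-conditioned, and mice A75, A91, A94 and A115 were ADV-conditioned. Poly(A)-selected RNA gave 1 library per organ and mouse, 16 in all, from a pair of sequencing providers with different instruments. Which library came from which provider is not given in the sources used here, so that a sequencing batch and the condition cannot be told apart.

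Apolipoproteins are the proteins of the lipoprotein particles that carry triglyceride and cholesterol through the blood. In the hepatocyte, APOB is lipidated by microsomal triglyceride transfer protein while it is translated, and the particle leaves the cell as very low density lipoprotein. The smaller apolipoproteins exchange between particles, where they activate or inhibit lipases, serve as ligands of receptors or form the protein part of high density lipoprotein.

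The tables give FPKM, the fragments per kb of exon per 1000000 fragments of a library, which allows levels to be compared between genes. The fragments on genes numbered 22501280 to 24285055 per LD liver, 21092501 to 21721621 per ADV liver, 15688495 to 17851563 per LD kidney and 16142472 to 18043306 per ADV kidney. A single fragment in 1 kb of exon was worth 0.0380 to 0.0440 FPKM in a liver and 0.0508 to 0.0584 FPKM in a kidney. The labels of the organs were borne out by their markers, since albumin (Alb) lay between 41459 and 52061 FPKM in the livers and between 2.83 and 5.71 FPKM in the kidneys, and the sum of 9 tubule and podocyte markers did not exceed 1.36 FPKM in any liver. A pair of libraries stood apart before any gene was compared. The mean correlation with the other livers was 0.941 for A94 and 0.977 to 0.982 for the rest, and among the kidneys it was 0.858 for A115 and 0.932 to 0.964 for the rest. In the A115 kidney, 33.8% of the gene fragments lay on mitochondrial genes, against 9.43% to 18.02% in the other 7.

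The members lay on 5 chromosomes. On chromosome 9 (GRCm38/mm10), Apoa1, Apoc3, Apoa4 and Apoa5 filled 43.29 kb between 46228630 and 46271919, with Apoc3 on the minus strand and the other 3 on the plus strand. On chromosome 7, Apoc2, Apoc1 and Apoe filled 26.82 kb between 19671579 and 19698398, all on the minus strand. Apoa2 lay on chromosome 1 (171225054 to 171226379), Apob on chromosome 12 (7977677 to 8016839) and Mttp on chromosome 3 (138089855 to 138131377), and all 10 rows were annotated as coding. In the GENCODE annotation, Apoa4, Apoa5 and Mttp were overlapped by genes on the opposite strand, and Apoc2 by Gm44805 on the same strand. None of these has a row in the tables, and since the sources used here do not say whether strand was used in counting, a part of the fragments of these 4 genes may belong to them.

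The promoters of 3 neighbours on chromosome 9 are shown, because these genes lay within one cluster and had different values in the liver. Each line is the plus strand of the RefSeq window from 250 bases before to 50 bases after the start (GRCm38.p6), at chr9:46228380-46228679 for Apoa1, chr9:46240594-46240893 for Apoa4 and chr9:46268358-46268657 for Apoa5. Capitals mark the motifs found.
Apoa1: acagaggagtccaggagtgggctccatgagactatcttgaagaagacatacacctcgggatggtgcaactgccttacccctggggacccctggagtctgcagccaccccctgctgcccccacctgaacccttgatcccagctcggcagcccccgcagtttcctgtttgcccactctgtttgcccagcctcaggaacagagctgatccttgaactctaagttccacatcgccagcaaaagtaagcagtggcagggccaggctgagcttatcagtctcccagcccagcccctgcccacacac
Apoa4: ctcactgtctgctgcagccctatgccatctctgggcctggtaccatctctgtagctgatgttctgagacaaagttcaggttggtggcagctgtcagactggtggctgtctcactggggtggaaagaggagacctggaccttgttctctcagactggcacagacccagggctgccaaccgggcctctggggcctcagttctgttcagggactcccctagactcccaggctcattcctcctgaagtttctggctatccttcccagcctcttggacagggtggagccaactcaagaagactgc
Apoa5: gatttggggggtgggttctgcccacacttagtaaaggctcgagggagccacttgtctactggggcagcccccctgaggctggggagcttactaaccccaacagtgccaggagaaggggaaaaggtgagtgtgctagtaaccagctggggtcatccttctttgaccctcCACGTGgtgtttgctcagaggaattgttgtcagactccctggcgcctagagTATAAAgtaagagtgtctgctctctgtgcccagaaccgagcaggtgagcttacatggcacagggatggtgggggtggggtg

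Of the motifs searched on both strands, only the Apoa5 window of these 3 held any. It held CACGTG, the palindromic E-box, with its first base 82 bases before the start, and TATAAA, the TATA box, 31 bases before it. The same letters were found in 7.15% and 13.6% of the 32851 windows of all genes. TATAAA was also found 60 bases before the start of Apob and 212 bases before that of Apoa2. The nuclear receptor element AGGTCA (16.3% of all windows), the HNF4 motif CAAAGTCCA (0.475%) and the D-box in the forms TTATGTAA and TTACGTAA (1.06%) were in none of the 6 windows that began at the start of a member's row, which were those of Apoa1, Apoa2, Apoa4, Apoa5, Apob and Apoe.

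Several members were among the most abundant transcripts of the liver. Together the 10 genes took 3.07% to 3.68% of the gene fragments of a liver, and 0.0555% to 0.104% of those of a kidney. Apoe, a ligand of the receptors that clear remnant particles, was the highest of the members with a mean of 8026 FPKM over the 8 livers, and only 2 of the other genes of the table had a higher mean. The structural proteins of high density lipoprotein followed, Apoa2 with 7270 FPKM and Apoa1 with 6629 FPKM, and then Apoc1 with 4542 FPKM. Below them came Apoc3 (1327 FPKM), Apob (531 FPKM), Apoa5 (422 FPKM), Apoc2 (172 FPKM), Mttp (71.6 FPKM) and Apoa4 (54.2 FPKM). Over the 8 livers the values of neighbours in this order overlapped from Apoe down to Apoc1, between Apob and Apoa5 and between Mttp and Apoa4. The ranges of Apoc1 and Apoc3, of Apoc3 and Apob, of Apoa5 and Apoc2 and of Apoc2 and Mttp did not overlap.

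In the kidney the order was another one. Apoe was again the highest member, with a mean of 200.1 FPKM, but the range over the 8 kidneys was 18.3 to 489 FPKM and overlapped that of Apob, which had a mean of 28.1 FPKM. Mttp came next with 7.39 FPKM (5.99 to 8.68), below every value of Apob. Apoc3 (4.82 FPKM), Apoa2 (3.84 FPKM), Apoa4 (3.09 FPKM) and Apoc1 (1.66 FPKM) were low, with ranges that overlapped from one to the next. Apoc2 (0.561 FPKM) and Apoa1 (0.344 FPKM) did not reach the minimum for testing, a mean of 0.5 fragments per 1000000 in the organ. Apoa5 was at 0 in all 8 kidneys, where 3 fragments would have given 0.0657 to 0.0756 FPKM.

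**Figure D1:**
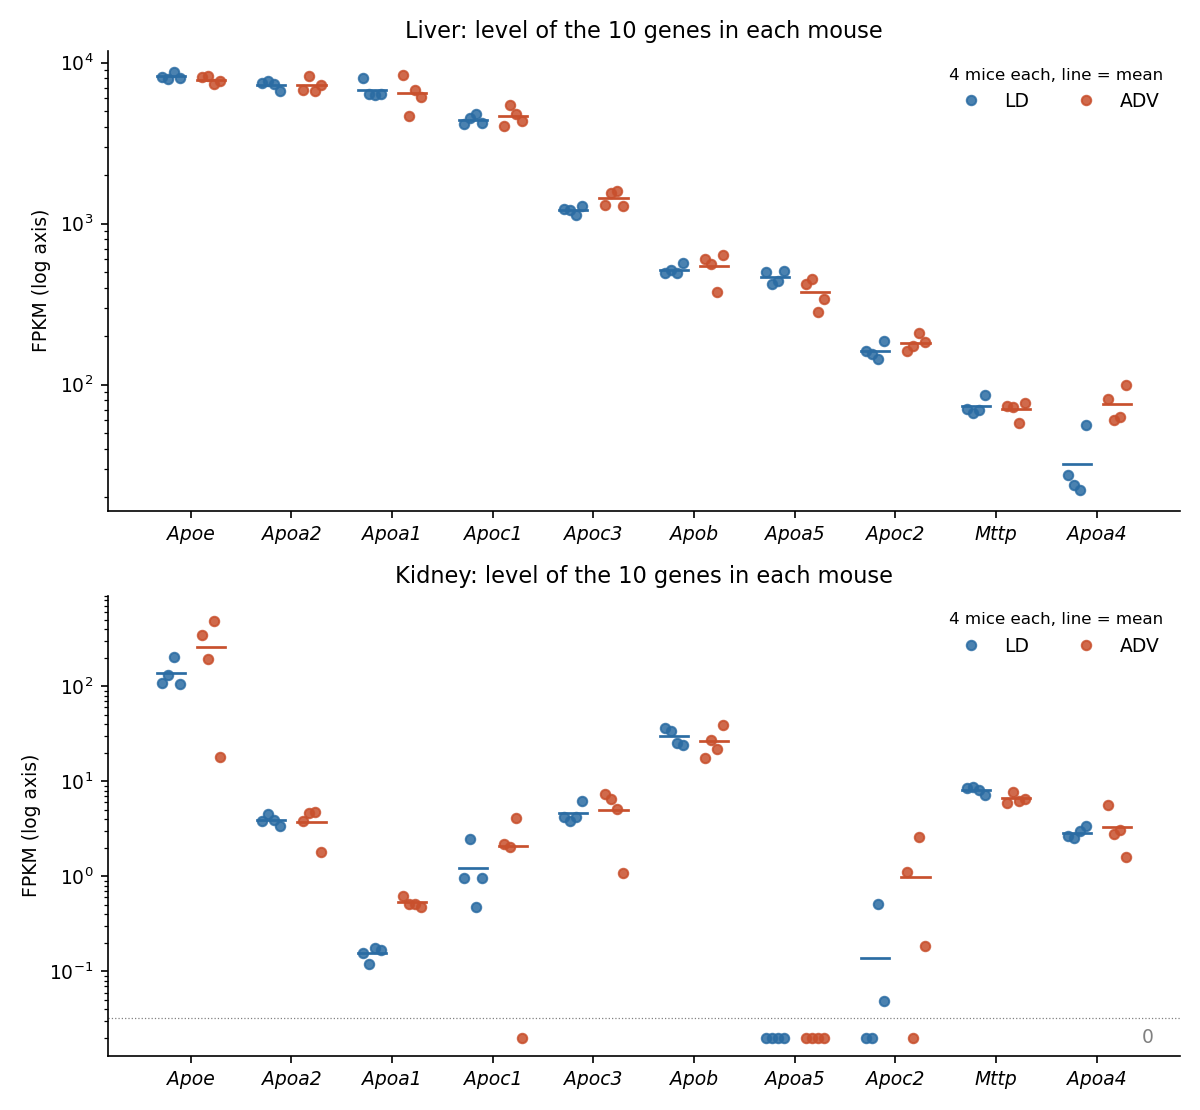
FPKM of the 10 genes in each of the 8 livers (top) and 8 kidneys (bottom) on a log axis, with points for mice and lines for the means of 4 mice. Points below the dotted line are at 0. In the liver only Apoa4 and Apoc3 have separate groups, and in the kidney only Apoa1.

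All 10 members were higher in each of the 8 livers than in any kidney, which held for 6.28% of the 21455 genes with a value in either organ. The ratio of liver to kidney within a mouse differed widely between members, as far as levels from separately made tables can be set against each other. Its median over the 8 mice was 1835 for Apoa2 (1401 to 3993), 280.1 for Apoc3 (176 to 1196), 50.6 for Apoe (14.95 to 419), 18.3 for Apob (13.7 to 34.0), 15.4 for Apoa4 (7.41 to 62.0) and 9.35 for Mttp (7.65 to 12.2). For 4 members some kidneys had 3 fragments or fewer. With 3 fragments per library as the floor, the liver was at least 8958-fold higher for Apoa1, at least 4306-fold for Apoa5, at least 1156-fold for Apoc1 and at least 79.2-fold for Apoc2 in every mouse. Of the 6 members with a ratio in every mouse, Mttp and Apob, which assemble the particles, had the narrowest ranges on the log2 scale and Apoe the widest. The 10 hepatocyte markers also differed among themselves in the kidney. Cps1, a hepatocyte enzyme of the urea cycle with 373 to 748 FPKM in the livers, was at 0 in all 8 kidneys, and Ahsg, another secreted liver protein, did not exceed 0.0375 FPKM there. Ttr, a carrier of thyroid hormone and retinol, was at 12.4 to 53.8 FPKM in the kidneys, and the fibrinogen genes Fga and Fgg reached 58.1 and 138 FPKM.

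In the liver, Apoa4 was the member that separated the conditions most. APOA4 is a protein of chylomicrons and high density lipoprotein that in mice is also made by a lipid-loaded liver. It measured 27.4 FPKM in L63, 23.8 in L65, 22.2 in L86 and 55.9 in L104, whereas A75, A91, A94 and A115 had 81.9, 60.5, 62.5 and 99.3 FPKM. All 4 ADV livers lay above all 4 LD livers, and L104 lay apart from the other 3 LD livers. The means were 32.3 ± 15.8 FPKM under LD and 76.0 ± 18.2 FPKM under ADV (SD, n = 4 each). The log2 fold change, taken as ADV against LD on the log2(FPKM + 0.1) scale here and below, was 1.31 with a standard error of 0.29, or 2.48-fold. Limma gave an unadjusted p of 0.00124 and, adjusted over the 12835 genes tested in the liver, 0.269. A two-sided exact permutation test over the 4 and 4 mice gave p = 0.0286, the smallest that this design allows. Over the alternatives the log2 fold change stayed between 1.08 and 1.61, and the adjusted p of limma between 0.0886, without L104, and 0.588.

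Across the set the liver counts were close to those of all genes. All 10 members were tested, and none had an adjusted p under 0.05 in limma, against 0.00779% of all genes, which was 1 gene. Apoa4 alone had an unadjusted p under 0.05, 1 of 10, where 11.8% of all genes had one and 8.65% had one with the higher level under ADV. The groups did not overlap, with ADV higher, in 2 of 10, namely Apoa4 and Apoc3, against 6.94% of all genes. The log2 fold change was above 0 in 5 members and below 0 in 5, where 65.7% of all genes were above 0. The median over the members was 0.016 and over all genes 0.096. Scaling each library by its median ratio to the others took the median of all genes to 0.0095 and that of the members to -0.075, so that changes under about 0.1 have no settled direction here.

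**Figure D2:**
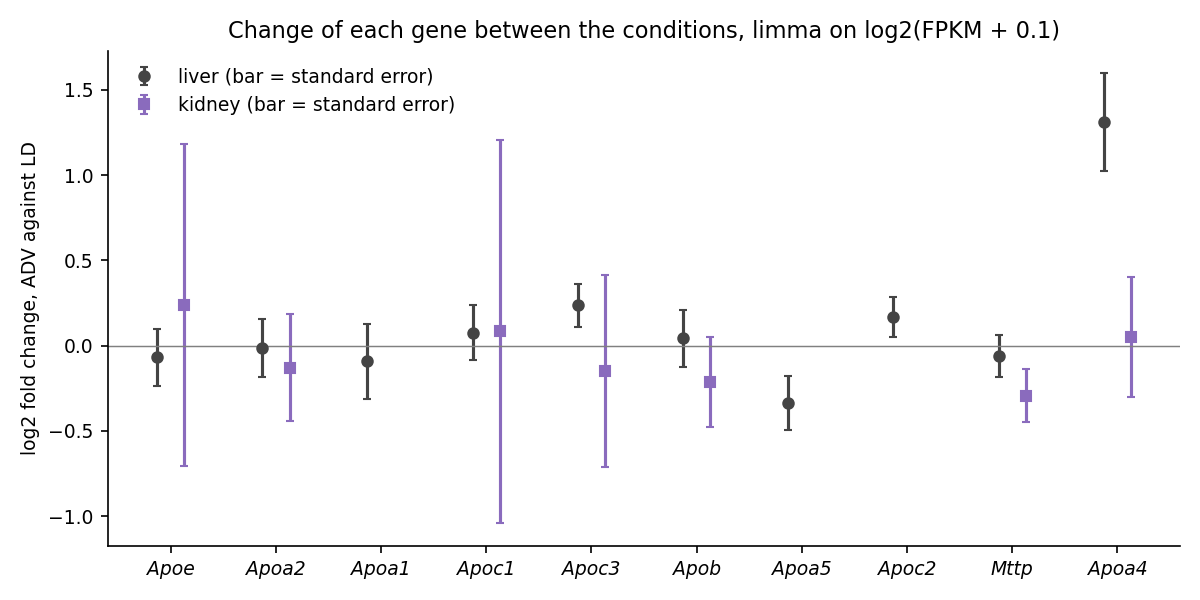
Log2 fold change of each member, ADV against LD, in liver (circles) and kidney (squares) with the standard error of limma on log2(FPKM + 0.1). Apoa4 in the liver stands at 1.31, and the widest errors are those of Apoe and Apoc1 in the kidney. Apoa1, Apoa5 and Apoc2 have no kidney point because they were below the minimum for testing.

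The neighbours of Apoa4 on chromosome 9 had smaller differences. Apoc3 encodes an inhibitor of lipoprotein lipase and of remnant uptake. It measured 1235, 1212, 1125 and 1290 FPKM in L63, L65, L86 and L104, and 1305, 1560, 1591 and 1296 FPKM in A75, A91, A94 and A115. The groups did not overlap, although the lowest ADV liver (A115) and the highest LD liver (L104) were almost level. Its log2 fold change was 0.24 (SE 0.13), with an adjusted p of 0.469 in limma and p = 0.0286 in the exact permutation test, and it was 0.15 after scaling by the median ratio.

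Apoa5, which makes lipoprotein lipase more effective, went the other way in its means. It measured 502, 424, 439 and 506 FPKM in the LD livers and 424, 455, 283 and 341 FPKM in the ADV livers, in the same order of mice. A94 and A115 lay below all LD livers, whereas A75 and A91 lay among them. The log2 fold change was -0.34 (SE 0.16), with an adjusted p of 0.442 in limma and an exact permutation p of 0.143, and it stayed below 0 in every alternative (-0.44 to -0.21). Apoa1, the main protein of high density lipoprotein, measured 8060, 6374, 6322 and 6370 FPKM in the LD livers and 8412, 4631, 6724 and 6140 FPKM in the ADV livers. L63 and A75 were the highest of their groups and A91 the lowest of all, so that the log2 fold change of -0.09 (SE 0.22, adjusted p 0.871 in limma) was small beside the spread.

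**Figure D3:**
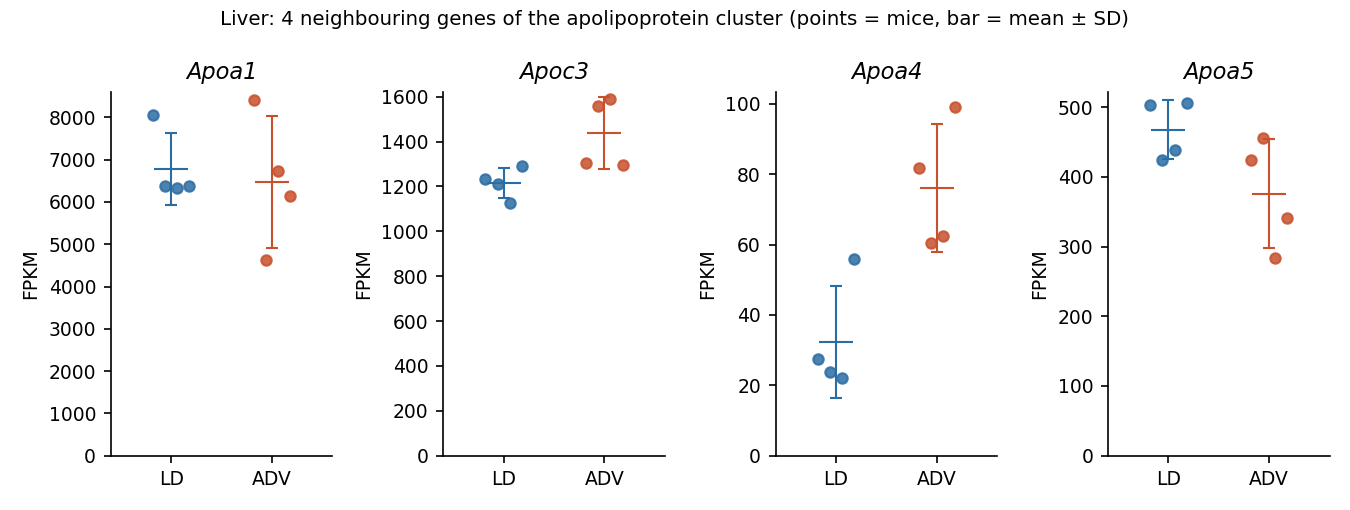
FPKM of the 4 neighbouring genes on chromosome 9 in LD and ADV livers, in their order along the chromosome, with points for mice and bars for mean and SD of 4. The axes start at 0. Apoa4 and Apoc3 have separate groups, Apoa1 and Apoa5 do not.

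The genes that build and release very low density lipoprotein overlapped between the conditions. Apob measured 496, 518, 492 and 567 FPKM in L63, L65, L86 and L104, and 600, 558, 378 and 638 FPKM in A75, A91, A94 and A115. A94 was the lowest liver and the other 3 ADV livers were within or above the LD range. The log2 fold change was 0.04 (SE 0.17, adjusted p 0.920 in limma), and its sign turned with the scaling. Mttp measured 70.1, 66.4, 69.3 and 86.7 FPKM in the LD livers and 73.3, 72.6, 58.0 and 76.6 FPKM in the ADV livers, again with A94 lowest and with L104 highest. Its log2 fold change was -0.06 (SE 0.12, adjusted p 0.844 in limma).

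The remaining liver genes overlapped between the groups as well. Apoc2, the cofactor that lipoprotein lipase needs, had a log2 fold change of 0.17 (SE 0.12, adjusted p 0.548 in limma), from 162 ± 17.97 FPKM under LD to 181 ± 20.1 FPKM under ADV (SD, n = 4 each). Apoe was at 8212 ± 402 FPKM under LD and 7839 ± 445 FPKM under ADV, a log2 fold change of -0.07 (SE 0.17). Apoa2 was at 7293 ± 420 and 7247 ± 740 FPKM, a log2 fold change of -0.01 (SE 0.17). Apoc1, which hinders the uptake of remnants, was at 4413 ± 284 and 4671 ± 612 FPKM, a log2 fold change of 0.08 (SE 0.16). The adjusted p of these last 3 in limma were 0.873, 0.978 and 0.853, and the signs of all 3 turned under one or the other scaling. Among the 8 livers, A94 held the lowest value of Apoa2, Apoa5, Apob, Apoe and Mttp.

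The livers differed in other measured features too. The sum of 10 macrophage and leukocyte markers was 128 to 196 FPKM in LD livers and 185 to 778 FPKM in ADV livers, with the 778 in A94. All 10 markers had a log2 fold change above 0, against 65.7% of all genes. Their median was 0.77, against 0.096 over all genes. None of these markers was at 0 in a liver. The 10 hepatocyte markers summed to 57336 to 68840 FPKM under LD and 59734 to 70533 FPKM under ADV. Bulk RNA cannot tell fewer cells of a type from less RNA per cell. The clock gene Arntl was at 0.700, 1.299, 2.496 and 3.95 FPKM in L63, L65, L86 and L104, and at 5.91, 1.06, 0.723 and 6.72 FPKM in A75, A91, A94 and A115. Dbp, a clock output gene, was at 28.6, 21.98, 13.4 and 8.25 FPKM in the LD livers and at 2.40, 37.8, 33.7 and 1.33 FPKM in the ADV livers. A75 and A115 had the highest Arntl, the lowest Dbp and the highest Apoa4, and L104 had the highest Arntl, the lowest Dbp and the highest Apoa4 of the LD livers. A91 and A94, with low Arntl and high Dbp, still had more Apoa4 than any LD liver. L86 came next to L104 among the LD livers in Arntl and Dbp, yet it had the lowest Apoa4 of all 8 livers, 22.2 FPKM. The part of leukocyte markers and of clock genes in these results was not tested.

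Around the members, 7 lists of other lipoprotein genes were read in the liver, and none of their genes had an adjusted p under 0.05 in limma. Of 9 other apolipoproteins tested, 8 had a log2 fold change above 0, and 2 had an unadjusted p under 0.05 and were higher under ADV. Over all liver genes these shares were 65.7% and 8.65%. Apof was higher in all 4 ADV livers (222 ± 16.6 FPKM under LD, 283 ± 28.4 under ADV, log2 fold change 0.34, adjusted p 0.333). Apon went from 120 ± 11.9 to 158 ± 22.8 FPKM (log2 fold change 0.39, adjusted p 0.339). The acute phase protein Saa2 had means of 31.1 and 97.8 FPKM, with an adjusted p of 0.424. The editing of Apob mRNA, which makes the short form of the protein, is carried out by the enzyme that Apobec1 encodes. A1cf encodes a partner of that enzyme, and editing itself was not measured here. Apobec1 had a log2 fold change of 0.46 and A1cf one of -0.50, with adjusted p of 0.422 and 0.436 in limma. A1cf was at 18.8 FPKM in A94 and at 37.7 to 40.75 FPKM in the other ADV livers, against 40.5 to 50.3 FPKM under LD. Over the alternatives its log2 fold change was -0.67 to -0.23.

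Of the 13 partners of assembly and secretion, 3 had a log2 fold change above 0 and 10 below 0, with a median of -0.10. Of all liver genes 65.7% were above 0, with a median of 0.096. Pla2g12b, which is needed for the lipid loading of APOB particles, was at 23.3, 24.7, 19.5 and 22.6 FPKM in the LD livers and at 31.1, 27.2, 29.4 and 29.7 FPKM in the ADV livers. The groups did not overlap, and the log2 fold change was 0.38 with an adjusted p of 0.296 in limma. Dgat1, an enzyme of triglyceride synthesis, had a log2 fold change of -0.28 (adjusted p 0.395), and Smlr1 one of -0.21 (adjusted p 0.430). Of 10 receptor and uptake genes tested, 9 were above 0, against 65.7% of all liver genes, with a median of 0.19. Mylip, a ubiquitin ligase, was higher in all ADV livers (3.83 ± 0.285 against 5.19 ± 1.26 FPKM, log2 fold change 0.40, adjusted p 0.398). The next by p were Vldlr (0.42) and Sdc1 (0.21), both on the log2 fold change scale, with adjusted p of 0.467 and 0.499 in limma.

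Among 13 genes of lipases and HDL remodelling, a pair with opposed roles stood out by p. Lpl, lipoprotein lipase, was at 2.02 to 2.94 FPKM in the LD livers and at 3.28 to 14.4 FPKM in the ADV livers, with the 14.4 in A94 (log2 fold change 1.20, adjusted p 0.363 in limma). Angptl4, an inhibitor of that enzyme, was at 53.4 to 96.4 FPKM under LD and at 26.6 to 53.2 FPKM under ADV (log2 fold change -0.85, adjusted p 0.321). Neither pair of groups overlapped. The endothelial lipase gene Lipg had a log2 fold change of -0.89 (adjusted p 0.431 in limma), and -1.08 to -0.43 over the alternatives. It was at 1.15 FPKM in A75 and at 3.54 to 4.74 FPKM in the other ADV livers. The LD livers had 4.58 to 7.38 FPKM. Of the 13 genes 9 were below 0, where 65.7% of all liver genes were above 0.

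Among 20 transcription factors that act on apolipoprotein genes, Ppara and Hnf4a had an unadjusted p under 0.05 and lower levels under ADV, as was the case for 3.13% of all genes. Ppara, a receptor for fatty acids that controls several of the members, was at 42.9, 48.1, 41.9 and 56.2 FPKM in the LD livers and at 31.5, 36.4, 25.5 and 20.6 FPKM in the ADV livers. The groups did not overlap (log2 fold change -0.75, SE 0.18, adjusted p 0.296 in limma, 0.101 to 0.642 over the alternatives). Hnf4a, a central activator of hepatocyte genes, was at 207 ± 28.7 and 155 ± 30.6 FPKM (log2 fold change -0.42, adjusted p 0.378). Among 10 lipid droplet genes, 7 were below 0, where 65.7% of all liver genes were above 0. G0s2, an inhibitor of triglyceride breakdown in droplets, was at 108 to 208 FPKM under LD and 42.1 to 92.2 FPKM under ADV (log2 fold change -1.27, adjusted p 0.247). Plin4 (-0.71) and Pnpla3 (0.72), given as log2 fold changes, had adjusted p of 0.451 and 0.459 in limma.

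**Figure D4:**
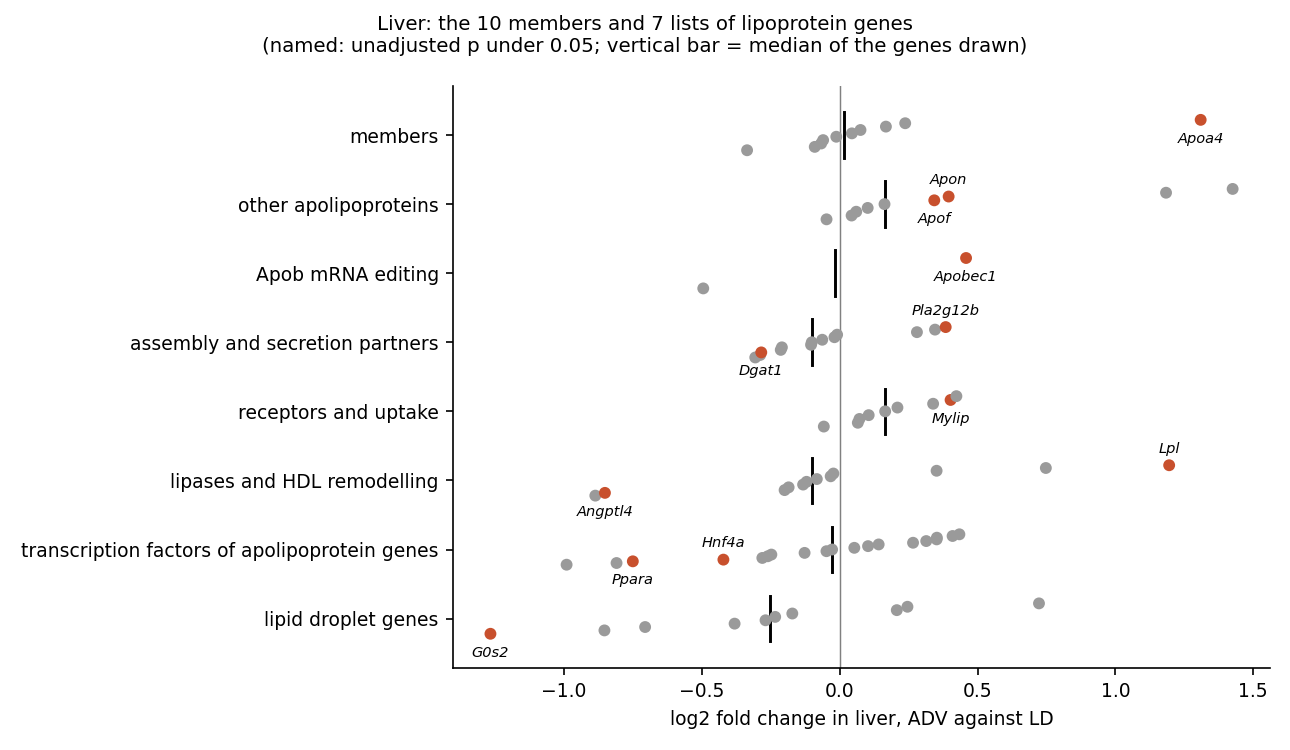
Log2 fold change in the liver, ADV against LD, of the members and of 7 lists of lipoprotein genes, 1 point per gene tested, with a vertical bar at the median of the genes drawn. Coloured and named points have an unadjusted p under 0.05, and genes not reported here are not drawn. No point had an adjusted p under 0.05, and the largest difference among the members is that of Apoa4 at 1.31.

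In the kidney, 7 members were tested, and none had an adjusted p under 0.05 in limma, nor did any other of the 14452 genes (0%). None of the 7 had an unadjusted p under 0.05 (3.1% of all genes), and none of them had groups that did not overlap (2.8%). The median log2 fold change was -0.13 over the members and -0.024 over all genes.

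Apoe, which macrophages and tubule cells make as well as hepatocytes, varied widely between the kidneys. It measured 109 FPKM in L63, 132 in L65, 204 in L86 and 106 in L104, whereas A75, A91, A94 and A115 had 348, 194, 489 and 18.3 FPKM. A75 and A94 lay above all LD kidneys, A91 among them, and A115 far below all of them. Its log2 fold change was 0.24 with a standard error of 0.94 and an adjusted p of 0.9999 in limma. Without A115, whose library stands apart, the log2 fold change was 1.27 (SE 0.33) and the adjusted p 0.0338. In that fit 18.8% of all genes had an adjusted p under 0.05 and 16.1% had one with the higher level under ADV, and Apoe was the 1 member of 7 that did. With scaling by the median ratio added, it was 1.08 (SE 0.29) with an adjusted p of 0.0408, where 16% of all genes passed and 8.31% passed with the higher level under ADV.

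The kidneys with much Apoe also had higher sums of leukocyte markers. The 10 macrophage and leukocyte markers summed to 182, 215, 521 and 190 FPKM in L63, L65, L86 and L104, and to 474, 226, 1678 and 160 FPKM in A75, A91, A94 and A115. The highest kidney by both measures was A94 and the lowest A115, and L86 was the highest LD kidney by both. Cd74 alone made up most of these sums, with 1340 FPKM in A94, 366 in L86 and 91.8 in A115. The markers did not all follow the sum in A115. Csf1r, Gpnmb and Trem2 were lowest there, whereas Adgre1, Cd68 and Lyz2 lay within the LD range. Ptprc was at 8.39 FPKM in A115, above the LD kidneys (3.06 to 4.72 FPKM). Of the markers, Clec4f, which defines the resident macrophages of the liver, was at 0 in all 8 kidneys, and Marco did not exceed 0.0297 FPKM. The 9 tubule and podocyte markers summed to 1377 FPKM in A115 and to 2899 to 4519 FPKM in the other kidneys. The part of these cells in the level of Apoe was not tested.

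**Figure D5:**
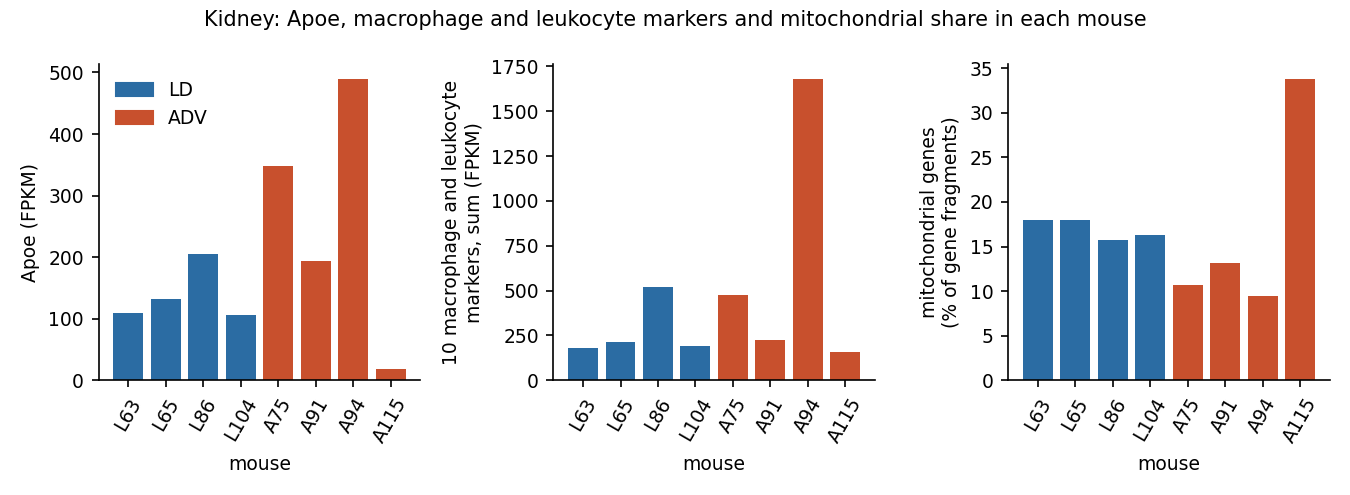
Apoe (left), the summed level of 10 macrophage and leukocyte markers (middle) and the mitochondrial share of gene fragments (right) in the kidney of each mouse, with bars from 0. A94 is highest and A115 lowest in the first and second panel, and A115 has 33.8% of its gene fragments on mitochondrial genes. Cd74 makes up most of each sum in the second panel.

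Apoc1 and Apoc2, the neighbours of Apoe on chromosome 7, were low in the kidney and highest in the same mouse. Apoc1 measured 0.964, 2.46, 0.476 and 0.966 FPKM in the LD kidneys and 2.21, 2.05, 4.15 and 0 FPKM in A75, A91, A94 and A115. The groups overlapped, and the log2 fold change of 0.08 had a standard error of 1.12 and changed its sign with the scaling. Without A115 it was 1.28 (SE 0.47), with an adjusted p of 0.0886 in limma. Apoc2 rested on 0, 0, 5 and 0.5 fragments in L63, L65, L86 and L104 and on 11.5, 0, 29.5 and 2 fragments in A75, A91, A94 and A115, where each read of a pair counted 0.5. It was not tested with limma, and the exact permutation test gave p = 0.257.

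Apob and Mttp were lower in the means of the ADV kidneys. The kidney is one of the few organs besides liver and gut in which both are transcribed. Apob measured 36.1, 33.5, 25.1 and 24.3 FPKM in L63, L65, L86 and L104, and 17.6, 27.0, 21.97 and 39.1 FPKM in A75, A91, A94 and A115. A115 was the highest kidney and A75 the lowest, and the log2 fold change was -0.21 (SE 0.27, adjusted p 0.9999 in limma, 0.0854 to 0.99999 over the alternatives). Without A115 it was -0.42 (SE 0.19, adjusted p 0.140), and -0.61 (SE 0.22, adjusted p 0.0854) with scaling by the median ratio added. Mttp measured 8.56, 8.68, 8.20 and 7.10 FPKM in the LD kidneys and 5.99, 7.76, 6.21 and 6.59 FPKM in the ADV kidneys. Only A91 reached into the LD range, and the log2 fold change was -0.29 (SE 0.15) with an adjusted p of 0.9999 in limma, 0.0661 to 0.99999 over the alternatives, and an exact permutation p of 0.0571. It was -0.29 without A115 and -0.48 (SE 0.16, adjusted p 0.0661) with that scaling added.

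The genes of the chromosome 9 cluster were traces in the kidney. Apoa4 measured 2.63, 2.56, 2.99 and 3.38 FPKM in the LD kidneys and 5.68, 2.77, 3.10 and 1.602 FPKM in the ADV kidneys, with A75 the highest and A115 the lowest. Its log2 fold change was 0.05 (SE 0.35, adjusted p 0.9999 in limma). Apoc3 measured 4.19, 3.82, 4.23 and 6.24 FPKM in the LD kidneys and 7.396, 6.49, 5.14 and 1.08 FPKM in A75, A91, A94 and A115, so that its log2 fold change was -0.15 with A115 and 0.46 (adjusted p 0.127 in limma) without it. Apoa2, which lies elsewhere, was likewise lowest in A115, at 1.82 FPKM against 3.36 to 4.76 FPKM in the other 7 kidneys, and had a log2 fold change of -0.13 (SE 0.31, adjusted p 0.9999) with A115 and 0.18 (SE 0.15, adjusted p 0.398) without it.

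Apoa1 was the exception to the overlap in the kidney, at levels too low for the test across genes. It rested on 3, 2, 3 and 3 fragments in L63, L65, L86 and L104 and on 11, 9, 10 and 9 fragments in A75, A91, A94 and A115. Every ADV kidney lay above every LD kidney, A115 included, which held with ADV higher for 0.914% of the 20577 genes with any value in the kidney. The sums were 11 and 39 fragments, and the ratio of ADV to LD after division by library size was 3.42 with a 95% counting interval of 1.72 to 7.396. The exact permutation test gave p = 0.0286, and limma without a filter on low values gave an adjusted p of 0.642. Such intervals cover counting error only. The hepatocyte marker Alb did not move with it, at 3.87 to 5.71 FPKM under LD and 2.83 to 4.56 FPKM under ADV. The 10 hepatocyte markers summed to 38.3 to 76.7 FPKM in LD kidneys and 47.97 to 229.8 FPKM in ADV kidneys, with the highest sums in A75 and A115, where the fibrinogen genes Fga, Fgb and Fgg made up most of them. Their part in the level of Apoa1 was not tested.

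The genes around the members in the kidney had few low p values. Lpl, at 186 ± 32.3 FPKM under LD, was 117 ± 7.87 FPKM under ADV with groups that did not overlap (SD, n = 4 each, log2 fold change -0.66, SE 0.16), whereas it was higher under ADV in the liver. Its adjusted p in limma was 0.9999, and 0.0202 to 0.99999 over the alternatives. The difference of its log2 fold changes, liver less kidney, was 1.85 (SE 0.49, unadjusted p 0.00179, adjusted p 0.9999 in limma). A1cf (-0.73) and Ppara (-0.72) were lower and Mylip (0.47) higher in all ADV kidneys on the log2 fold change scale, each with an adjusted p of 0.9999. The receptors that take up filtered apolipoproteins in the proximal tubule overlapped between the groups. Cubn was at 49.1 ± 5.18 FPKM under LD and 41.5 ± 4.505 FPKM under ADV. Its membrane partner Amn was at 17.6 to 28.1 FPKM in the LD kidneys and at 50.1, 53.6, 51.4 and 1.21 FPKM in A75, A91, A94 and A115, so that the overlap came from A115 alone. For Amn the log2 fold change was -0.13 (SE 1.15) with A115 and 1.20 (SE 0.17, adjusted p 0.0109 in limma) without it, and 1.01 (adjusted p 0.0199) with scaling by the median ratio added. No gene of the 7 lists passed an adjusted p of 0.05 in limma with all 8 kidneys.

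The lists had mixed signs in this organ. The log2 fold change was above 0 in 3 of 4 other apolipoproteins tested, 1 of 2 editing genes, 3 of 12 assembly and secretion partners, 7 of 13 receptor and uptake genes, 6 of 10 genes of lipases and HDL remodelling, 6 of 19 transcription factors and 1 of 8 lipid droplet genes, where it was above 0 in 46.4% of all genes. Tm6sf2, which aids the lipid loading of very low density lipoprotein, had a log2 fold change of 0.86, with an adjusted p of 0.9999 in limma with all 8 kidneys. The same adjusted p held for the other genes with the smallest p of their lists, which on the log2 fold change scale were Clu (0.75), Apod (0.73) and Apoh (0.38) of the apolipoproteins, Apobec1 (0.51), Ces1d (-0.75) and Mia2 (-0.33) of editing and assembly, Angptl8 (0.94) and Abca1 (0.46) of the lipase list, Rora (-0.35) of the transcription factors, and Mogat1 (-0.65), Cd36 (-0.46) and Plin2 (-0.38) of the droplet genes. Several of these values depended on A115. Without it they were smaller for Ces1d (-0.35), Abca1 (0.25), Mogat1 (-0.31), Plin2 (-0.073) and Clu (0.57). They were larger for Apod (0.96), Apoh (0.49), Apobec1 (0.57), Mia2 (-0.47), Angptl8 (1.53), Rora (-0.48) and Cd36 (-0.69).

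Without A115, 19 of the 68 genes of these lists had an adjusted p under 0.05 in limma, 14 higher and 5 lower under ADV, or 27.9% beside the 18.8% of all genes. The split depended on the scaling, since over all genes of this fit the log2 fold change had a median of 0.20. With scaling by the median ratio it was 0.015, and 15 of the 68 genes passed, 8 higher and 7 lower, or 22.1% beside 16% of all genes, of which 8.31% were higher in place of 16.1%. Some of them are named here after their values were seen. The sterol regulators Srebf1 (log2 fold change 1.35, SE 0.20, adjusted p 0.0110) and Srebf2 (1.06, SE 0.15, adjusted p 0.0109) were higher, as was Angptl8 (1.53, SE 0.33, adjusted p 0.0211), an inhibitor of lipoprotein lipase. Lpl itself was lower (-0.68, SE 0.15, adjusted p 0.0202), and so was A1cf (-0.88, SE 0.17, adjusted p 0.0168). These 5 genes had the same direction and an adjusted p of 0.0196 to 0.0298 after scaling by the median ratio. All of these calls rest on 3 ADV kidneys.

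The liver and kidney effects were then compared in 1 model over the 4 groups and 12319 genes. None of the 7 members tested in both organs had an adjusted p under 0.05 in limma for the difference of the effects (0% of all genes), and 1 of 7 had an unadjusted one, against 3.46% of all genes. That gene was Apoa4, whose log2 fold change was higher in the liver than in the kidney by 1.26 (SE 0.48, unadjusted p 0.0192, adjusted p 0.9999). For the others the difference of the log2 fold changes, liver less kidney, was 0.39 (SE 0.59) for Apoc3, 0.26 (SE 0.32) for Apob, 0.23 (SE 0.19) for Mttp, 0.12 (SE 0.33) for Apoa2, -0.01 (SE 1.19) for Apoc1 and -0.31 (SE 1.004) for Apoe. Without the libraries of A115, the difference was 0.84 (SE 0.42, unadjusted p 0.0675) for Apoa4, -1.17 (SE 0.52, unadjusted p 0.0425) for Apoc1 and -1.33 (SE 0.39, unadjusted p 0.00427) for Apoe. Apoc1 and Apoe were then the 2 of 7 members with an unadjusted p under 0.05 in limma, as were 23.3% of all genes, and their adjusted p were 0.198 and 0.0684. Which members differed most between the organs thus rested on A115, and no difference of a member passed adjustment over all genes with or without it.

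The members did not move as one group across the livers. Of the 45 pairs, 5 had a permutation p under 0.05 for Pearson's r, and none had an adjusted one (exact over the 8 mice, two-sided). Apob and Mttp, whose products act together, had r = 0.81 (exact permutation p 0.0234, adjusted 0.306) and Spearman's rho = 0.86 (exact permutation p 0.0107, adjusted 0.482), and r was 0.56 without the 2 mice farthest from the median of Apob. Apoa1 and Apoc1 had r = -0.83 (exact permutation p 0.0120, adjusted 0.306), which fell to -0.35 without the 2 mice at the ends. The rest of these pairs were Apoc2 and Apoe (r = -0.81, exact permutation p 0.0150, adjusted 0.306), Apoc2 and Apoc3 (r = 0.77, exact permutation p 0.0272, adjusted 0.306) and Apoa5 and Apoe (r = 0.74, exact permutation p 0.0379, adjusted 0.341). Without the 2 mice farthest from the median of the first gene, their r was -0.26, 0.35 and -0.11. The hepatic and the renal level of a member were then set against each other across mice. For the 7 members measured in both organs r lay between -0.016 and 0.26, and the smallest exact permutation p was 0.534 (0.971 adjusted), while Spearman's rho lay between -0.33 and 0.50 with a smallest exact permutation p of 0.216 (0.840 adjusted). Without the 2 mice farthest from the median of the liver level, r was -0.76 for Apob, -0.79 for Mttp and 0.78 for Apoe, so that for these 3 genes r over all 8 mice depended on which mice were included.

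As a description over the 8 livers, the genes most like Apoa4 on the log2 scale were 9030619P08Rik (r = 0.99), Zfp772 (r = 0.97) and Ttc14 (r = 0.97). 9030619P08Rik was at 2.47, 1.74, 1.74 and 4.57 FPKM in L63, L65, L86 and L104 and at 8.24, 5.58, 7.09 and 9.02 FPKM in A75, A91, A94 and A115. It thus shared the high value of L104 among the LD livers as well as the higher level under ADV. Perp (r = 0.97), Tymp (r = 0.96) and Cyp2c37 (r = 0.95) were most like Apob, and Ccdc186 (r = 0.94), Pxmp4 (r = 0.92) and Sec16b (r = 0.92) most like Mttp. These genes were picked as the highest of 12835 over 8 mice that share their libraries, and no p is given.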

How the data were processed

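Poly(A)-enriched RNA of liver and kidney from 4 LD-conditioned and 4 ADV-conditioned mice was examined. The authors aligned the reads with STAR (2.5.4b in the submitters' processing notes) against GRCm38/mm10, counted them with Homer over the exons of UCSC known canonical genes, and deposited FPKM in 1 table per organ, under column names that say RPKM. No scaling was applied beyond a library's own total. FPKM times exon length and library total gave steps of 0.5 fragment within 0.02 in 100% of values below 500 fragments, so that fragments could be recovered. No reads were mapped again.

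Genes with a mean above 0.5 fragments per 1000000 in an organ were tested with limma 3.58.1 (R 4.3.3, lmFit and eBayes with a trend) on log2(FPKM + 0.1), which understates changes of low genes, with Benjamini-Hochberg adjustment over all of them. A count test was not the main test because the deposited values are not counts. The exact permutation tests took all 70 ways to assign 4 of 8 mice and were two-sided. Each mouse is a separate animal and 1 replicate.

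Liver and kidney of 1 mouse bear the same name in the labels. The deviations of same-named liver and kidney from their group means had r of 0.147, 0.117, 0.185 and 0.0982 (L63, L65, L86, L104) and -0.0242, 0.334, 0.553 and 0.0423 (A75, A91, A94, A115), against a median of -0.0136 for different mice.

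The members and the gene lists were chosen with earlier results of these data known. Besides the 10 members, the text names of each list the genes with an adjusted p under 0.05 and the 3 with the smallest p per organ, the 3 genes most like Apoa4, Apob and Mttp, and clock genes set beside a member. Some list genes that the rule takes are not reported here, though the counts of the lists include them. The hepatocyte, kidney, and macrophage and leukocyte markers served to check the organs. Promoter windows came from RefSeq, which held 1 for 8 of the 10 members, 6 of them at the start of the row. Alternatives were pseudocounts of 0.5 and 1, no filter, a mean FPKM above 1, median-ratio scaling, quantile normalization, TPM, no mitochondrial genes, no trend, limma-voom on recovered fragments, a joint fit of both organs, blocking by mouse and leaving out each mouse. The median ratio without A115 was added after the data had been seen.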

Additional observations from a re-analysis of the deposited data

Results flagged for a closer look

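Values far from the other 3 of their group by Dixon's ratio, above its 95% critical value, were found in 4 of the 38 groups of 4 examined, where chance gives about 1 in 20. In the LD livers, Apoa4 was 55.9 FPKM in L104 against 22.2 to 27.4 FPKM in the other 3 (ratio 0.845), and Apoa1 was 8060 FPKM in L63 against 6322 to 6374 FPKM (ratio 0.970). In the LD kidneys, Apoc3 was 6.24 FPKM in L104 against 3.82 to 4.23 FPKM (ratio 0.833), and Apoc2 was 0.511 FPKM in L86, from 5 fragments, against 0 to 0.0483 FPKM (ratio 0.905). All 4 lay in LD-conditioned mice. The A115 kidney was beyond this ratio in none of the members tested, although it held the lowest value of the 8 kidneys for Apoa2, Apoa4, Apoc1, Apoc3 and Apoe.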

How the results depend on the processing

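In the liver, none of the members passed an adjusted p of 0.05 under any alternative, and Apoa4, Apoc2, Apoc3 and Apoa5 kept their sign under all of them. The log2 fold change of Apoa1, Apoa2 and Apoe became 0.043, 0.053 and 0.045 with quantile normalization. That of Apob became -0.047 with median-ratio scaling and -0.13 with A115 left out as well, and that of Apoc1 became -0.015 with median-ratio scaling. Leaving out 1 mouse gave log2 fold changes of -0.23 to 0.060 for Apoa1, -0.079 to 0.025 for Apoa2, -0.043 to 0.21 for Apob, -0.0038 to 0.14 for Apoc1 and -0.11 to 0.028 for Mttp. The count of all genes with an adjusted p under 0.05 in limma was 1, and it was 6 without a filter, 0 with quantile normalization and 0 to 9 without 1 mouse. Median-ratio scaling changed the split of the liver genes with an unadjusted p under 0.05 from 1110 higher and 402 lower to 841 higher and 860 lower. In the kidney, Apoc1 became -0.039 with median-ratio scaling, -0.15 in TPM, -0.028 without mitochondrial genes and -0.068 with limma-voom, and Apoc3 became 0.27 with median-ratio scaling and without A115. Leaving out 1 mouse gave -0.27 to 0.18 for Apoa2, -0.25 to 0.34 for Apoa4, -0.52 to 1.28 for Apoc1, -0.43 to 0.46 for Apoc3 and -0.31 to 1.27 for Apoe. The count of kidney genes was 0, also with limma-voom, and it was 1 with both organs in 1 fit, 2318 with median-ratio scaling and without A115 and 0 to 2724 without 1 mouse, the 2724 without A115. The count of members was 1 with that scaling and without A115, and 0 to 1 without 1 mouse. The cause was not tested, beyond the values of the A115 kidney given above.

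For the difference of the liver and kidney effects, the mouse as a replicate block gave Apoa4 the value 1.26 with an unadjusted p of 0.0208 and an adjusted p of 0.9996 in limma, and this pairing changed no call. The count of genes was 0, and it was 1 with median-ratio scaling and 0 to 458 without 1 mouse, the 458 without A115. Apoc1 became 0.023 with median-ratio scaling. Leaving out 1 mouse gave differences of -0.19 to 0.29 for Apoa2, -1.17 to 0.58 for Apoc1, -0.17 to 0.71 for Apoc3 and -1.33 to 0.27 for Apoe. When the 45 correlations over livers were taken on deviations from the group means, r turned to 0.134 for Apoa1 and Apoa4, -0.111 for Apoa1 and Apoa5, 0.227 for Apoa4 and Apoa5, -0.0779 for Apoa4 and Apoc3, -0.0712 for Apoc1 and Apoc2 and 0.0294 for Apoc2 and Mttp. Depth limits the kidney values of Apoa1, Apoa5, Apoc1 and Apoc2 most. Those of Apoa2 (18 to 48.5 fragments) and Apoc3 (13 to 83.5 fragments) also rested on few fragments.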
